A study of Drosophila melanogaster with 16 samples.

Results

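RNA levels of Drosophila melanogaster larvae, sampled whole, were compared between 8 h and 16 h after the larvae had been moved to a high-sugar diet. The comparison used 7 of the 14 libraries analysed, namely HSD at 8 h (replicates 2, 3 and 4) and HSD at 16 h (replicates 1 to 4). It covered each gene whose deposited value was 1 or more in at least 3 of these 7 libraries, which held for 9997 of the 10128 genes of the table. The larvae of both groups had the genotype WT. They had first spent 24 h at 25 °C, at controlled density, on LSD, a low-sugar food of 10% yeast. As early second instars they were then placed on HSD, which adds 15% sucrose to the 10% yeast and was coloured with 2% blue food dye. HSD at 16 h therefore differs from HSD at 8 h in hours on sugar and in the age of the larvae, and these cannot be told apart, because no LSD group at 16 h was analysed here. HSD at 4 h (n = 3) and LSD at 8 h (n = 4), fed the same dye, are given as values only. A further HSD 8 h library, replicate 1, is marked in the labels as a removed outlier and was not analysed here. The labels do not say whether replicates came from separate cultures, so p-values measure only the spread between these samples.

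Before each moult the epidermis and the tracheal tubes make a new cuticle of chitin, chitin-binding proteins and cross-linking enzymes, a sequence timed by pulses of the steroid ecdysone. Sugar is sensed in part by the transcription factor pair Mondo and Mlx (bigmax), whose targets in the larva include the zinc finger factors sugarbabe (sug) and cabut (cbt) and the enzymes of fatty acid synthesis. The midgut secretes the amylases, maltases, lipases and serine proteases that break down food.

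Values are read counts that the authors scaled by an effective library size. The 7 libraries held between 17801048 and 22209115 counted reads, and 3 reads corresponded to a value between 0.127 and 0.172, a floor for counting error only. Differences were taken after adding 0.5 and converting to log2, so that changes of genes near 0 come out too small, and they were tested with limma across all genes with Benjamini-Hochberg adjustment at a threshold of 0.05. Where a named gene overlaps another in the Ensembl annotation of BDGP6.54, its reads may not be its own alone; this holds for ATPsynF, Amyrel, CG13040, CG14564, CG6271, CG6283, CG8545, Cht7, Cpr64Ad, CycE, Cyp310a1, Gs1, Hsp83, ImpL2, Irk2, kkv, Lip3, mag, Mal-A1, Mal-A8, Mondo, Nopp140, Npc2e, PH4alphaMP, RpLP0-like, Rpt1, Socs36E, srl, sug, Surf6, Treh, TwdlT, aay, bigmax, cbt, ftz-f1 and whd. Per-library values are listed in the order of replicates 2, 3 and 4 at 8 h and 1, 2, 3 and 4 at 16 h.

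Of the 9997 genes tested, 3623 (36.2%) differed between the times, 1711 (17.1%) higher at 16 h and 1912 (19.1%) lower. Most changes were small: the median change of a called gene was 1.27-fold upwards and 1.4-fold downwards. The large changes were mainly falls. Of all genes tested 170 (1.7%) were called and at least 4-fold lower at 16 h, and 6 (0.06%) were called and at least 4-fold higher. At 2-fold the counts were 477 lower (4.77%) and 62 higher (0.62%). The libraries of the groups did not overlap for 4556 genes (45.6%). The filter let through 32 genes with no 16 h library at 1 or more and 37 with no 8 h library at 1 or more, genes that had to differ to be tested.

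**Figure D1:**
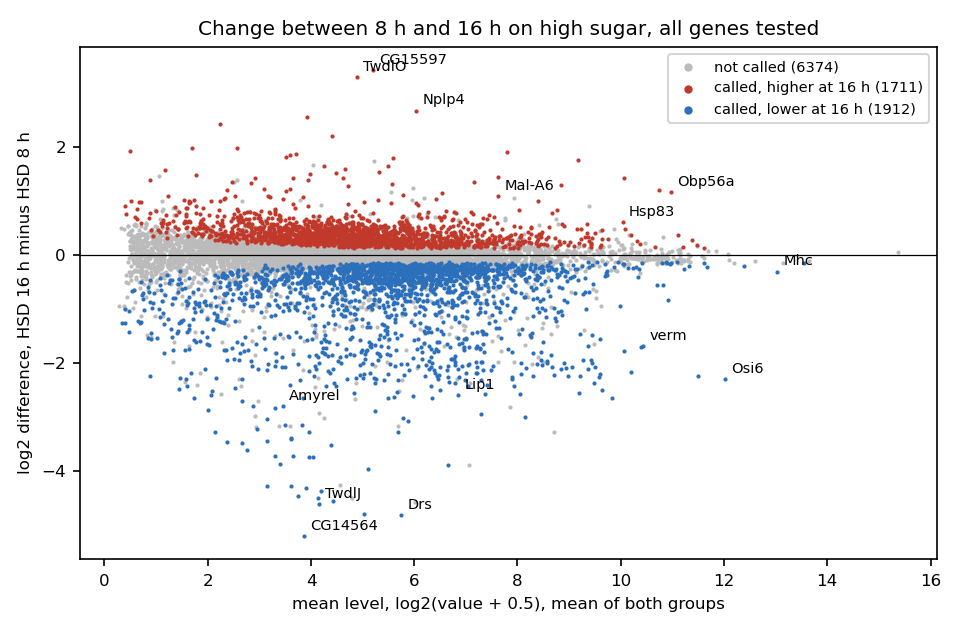
Each point is 1 of the 9997 genes tested, placed by its mean level over both groups (x axis, log2 of value plus 0.5) and its log2 difference between HSD 16 h and HSD 8 h (y axis), with called genes in colour. The deep falls reach -5.20 (CG14564), while the highest rise is 3.42 (CG15597).

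The split between rises and falls depended on how libraries were scaled. The deposited values summed to between 1018670 and 1063360 per library at 8 h and between 910679 and 950524 at 16 h. When every library was scaled to the same sum, the median difference over all genes moved from 0.0056 to 0.142, and 3391 genes were called higher and 1206 lower. Quantile normalization moved that median to 0.093 and called 2712 genes higher and 1284 lower. For the gene groups whose counts moved most, the counts under these scalings are given beside the main ones.

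Libraries of one group were not alike in the genes that changed most. Of the 170 genes at least 4-fold lower at 16 h, 98 had their highest 16 h value in replicate 2, and 112 had their highest 8 h value in replicate 4. Of the 62 genes at least 2-fold higher at 16 h, 54 had their highest 8 h value in replicate 3. The part of these libraries in each result was not tested beyond leaving them out, and what changed without them is given beside many of the results. Pearson's r of log2 values lay between 0.986 and 0.988 among the 8 h libraries, between 0.970 and 0.992 among the 16 h libraries and between 0.923 and 0.970 across the groups. The label whole larvae was checked on marker lists: the summed value of 26 muscle genes lay between 52477 and 57816 at 8 h and between 48379 and 51281 at 16 h, and that of 23 neuronal genes between 2575 and 2665 and between 2507 and 3041. For 10 tracheal genes, of which 6 fell, these ranges were 6079 to 8633 and 1914 to 2985. The tracheal markers include the chitin deacetylase genes verm and serp, which are also reported below. The fall of this list is therefore not separate from that of the cuticle and chitin genes. In such bulk samples fewer cells of a type and less RNA per cell cannot be told apart.

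**Figure D2:**
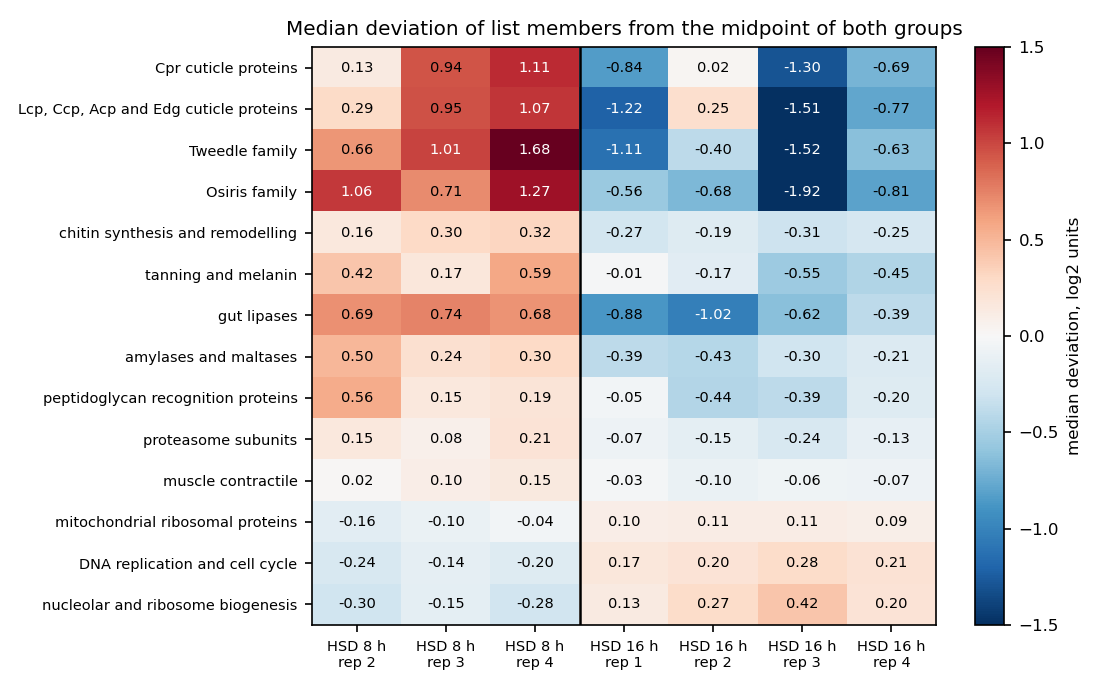
Each cell gives, for 1 gene list (row) in 1 library (column), the median deviation of its tested members from the midpoint of both group means, in log2 units (red above, blue below). The cuticle lists are above the midpoint in all 8 h libraries, and HSD 16 h replicate 2 has the highest value among the 16 h libraries for the Cpr, Lcp and Tweedle lists, while the nucleolar and replication lists are below the midpoint in all 8 h libraries and above it in all 16 h libraries.

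Genes of the cuticle and its assembly were lower at 16 h as groups. Of the Osiris genes, a family of insect membrane proteins expressed in cuticle-forming epithelia, 13 of 15 tested fell and none rose, with a median log2 difference of -1.96. Of the Tweedle genes, which encode structural cuticle proteins, 18 of 26 fell and 1 rose (median -2.01). Of 46 Cpr genes, whose products carry the chitin-binding Rebers and Riddiford domain, 21 fell and 4 rose (median -1.49). Among the older-named larval and pupal cuticle genes (Lcp, Ccp, Acp and Edg) 11 of 22 fell and 1 rose (median -1.89). The median over all genes tested was 0.0056. The count of Tweedle genes that fell was 10 without replicate 4 at 8 h and 11 without replicate 1 at 16 h. Leaving out any 1 library left between 14 and 26 Cpr genes and between 10 and 13 Osiris genes called lower. The count of Cpr genes that rose was 2 without replicate 1 at 16 h. The count of Lcp and Ccp genes that fell was 6 without replicate 4 at 8 h. The count of Lcp and Ccp genes that rose was 3 without replicate 3 at 8 h.

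The values of Osi9 were 1150.3, 871 and 1331 at 8 h and 317, 300.0, 195 and 306 at 16 h. All 4 libraries at 16 h lay below the lowest library at 8 h (log2 difference -2.001, SE 0.21, adjusted p = 0.0016). Osi18 (-2.02), Osi19 (-2.07) and Osi14 (-2.11), which lie in the same gene cluster, differed by nearly the same amount. TwdlT had 211, 208 and 297 in the 8 h libraries and 52.6, 67.0, 39.4 and 69.8 in the 16 h libraries. The groups of TwdlT did not overlap (log2 difference -2.07, SE 0.22, adjusted p = 0.0016), and those of the cuticle genes Cpr64Ad (-2.24), Cpr65Eb (-2.08) and Cpr35B (-1.88) did not either. dusky-like (dyl), which encodes an apical matrix protein with a zona pellucida domain, was at 1302, 878 and 1366 at 8 h and at 293, 345, 96.4 and 264 at 16 h (log2 difference -2.36, SE 0.43, adjusted p = 0.0065). HSD 16 h replicate 3 was the lowest of the 4 in dyl and in Osi9.

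Genes that build, modify and degrade chitin fell with them. Of the 39 tested, 24 fell and none rose (median -0.48), with 2 rises under equal sums and under quantile normalization, and the count without any 1 library stayed between 22 and 24. At 8 h verm was at 1563, 1942 and 2879, and at 16 h it was at 540.4, 682, 617 and 734. The chitin deacetylase vermiform (verm) and serpentine (serp), which shape the chitin of tracheal tubes, were 3.22-fold and 2.94-fold lower (adjusted p = 0.0019 and 0.003). The chitin synthase krotzkopf verkehrt (kkv) fell by 2.78-fold and the chitinase Cht7 by 3.88-fold. Of 17 tanning and melanin genes 9 fell and 1 rose, and leaving out any 1 library left between 6 and 10 called lower. Their products make and cross-link the catecholamines that harden and colour cuticle. pale (ple), the tyrosine hydroxylase that begins that pathway, was at 76.3, 162 and 84.1 at 8 h and 25.2, 35.4, 28.7 and 34.4 at 16 h (log2 difference -1.71, SE 0.26, adjusted p = 0.0037), with the highest value in HSD 8 h replicate 3. laccase2, the cross-linking oxidase, fell by 2.33-fold. The member that rose was yellow-e2 (1.61, 3.98 and 2.56 against 6.15, 6.08, 8.28 and 6.01, log2 difference 1.21, SE 0.25, adjusted p = 0.01).

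Among the deepest falls were several genes known by a CG number alone. In CG14564 the 8 h libraries were at 27.9, 40.8 and 14.5 and the 16 h libraries at 0, 1.52, 0 and 0. In CG14564 the 16 h libraries were listed at 0 except replicate 2, and no 16 h value reached the 8 h values (log2 difference -5.20, SE 0.58, adjusted p = 0.0017). CG4229 went from 17.4, 71.8 and 10.8 to 0.0466, 2.79, 0.546 and 0.244 (log2 difference -4.49, SE 0.79, adjusted p = 0.0057). CG14568 went from 17.0, 20.3 and 10.7 to 0, 2.96, 0 and 0.0489 (log2 difference -4.27, SE 0.70, adjusted p = 0.0046). In both, replicate 2 was the highest library at 16 h. TwdlJ was at 35.9, 15.8 and 42.4 at 8 h and at 0, 12.5, 0 and 0.147 at 16 h. The groups did not overlap (log2 difference -4.61, SE 1.17, adjusted p = 0.021), but the call on TwdlJ did not hold in every fit. Its adjusted p was 0.051 without HSD 16 h replicate 1, 0.054 without HSD 16 h replicate 4, 0.0657 without HSD 8 h replicate 2 and 0.0662 without HSD 8 h replicate 4. It was 0.0983 in edgeR's quasi-likelihood test on the recovered reads. The call was kept without HSD 8 h replicate 3, HSD 16 h replicate 2 or HSD 16 h replicate 3. Among the 170 genes at least 4-fold lower, 102 are known by a CG or CR number alone and 44 belong to the cuticle, Osiris, chitin, tanning, apical matrix or tracheal lists. The shares of such genes among all genes tested were not counted. Of the 62 genes at least 2-fold higher, 40 are also known by such a number alone, so these names are not particular to the falls.

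These falls had different levels in the groups outside the comparison. CG14564 was at a mean of 0.0556 in HSD at 4 h and 2.89 in LSD at 8 h, beside 27.7 ± 13.2 (SD, n = 3) in HSD at 8 h and 0.380 ± 0.760 (SD, n = 4) at 16 h. TwdlJ, CG4229 and CG14568 were likewise at means of 0.435, 0.252 and 0.180 at 4 h. The group means of these 4 genes were lower at 4 h and at 16 h than at 8 h, though in TwdlJ the library HSD 16 h replicate 2 lay close to the lowest 8 h library. In LSD at 8 h the 4 libraries of TwdlJ ranged from 0.727 to 33.6. Osi9, in contrast, was at 1163 at 4 h and 1317 in LSD at 8 h, close to its 1117 in HSD at 8 h, and verm was at 1775 and 2393 against 2128.

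**Figure D3:**
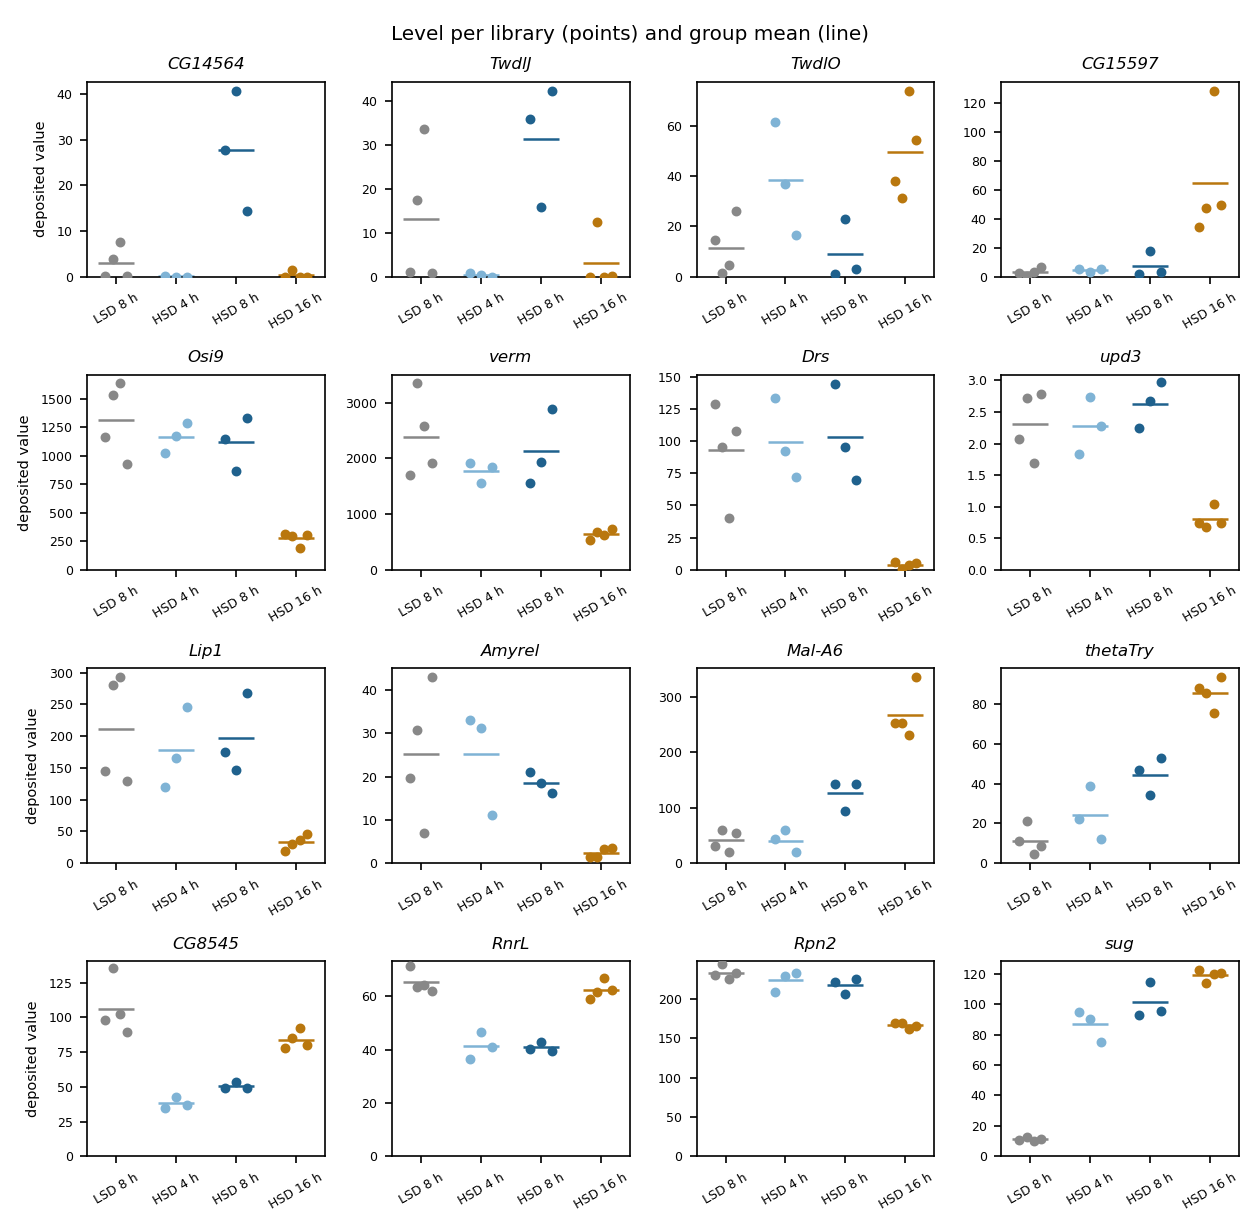
Deposited values of 16 genes (y axes, linear, from 0) in the 14 libraries (points) of LSD 8 h, HSD 4 h, HSD 8 h and HSD 16 h, with the group mean as a line. CG14564 and TwdlJ are high at HSD 8 h and near 0 at 4 h, whereas Osi9, verm, Drs and Lip1 are high in the other groups and low only in HSD 16 h, and Mal-A6 and thetaTry are highest at 16 h.

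The largest rises included 2 members of the cuticle lists, TwdlO and Lcp4, and genes of no cuticle list. The values of CG15597 were 1.66, 17.7 and 3.34 at 8 h and 34.4, 47.0, 128 and 49.4 at 16 h. CG15597 had the largest rise of all genes tested (log2 difference 3.42, SE 0.75, adjusted p = 0.012). HSD 8 h replicate 3 was high among its group, and the groups still did not overlap. TwdlO, the Tweedle member that rose, was at 0.918, 23.03 and 2.87 at 8 h and 38.3, 31.3, 74.2 and 54.3 at 16 h (log2 difference 3.30, SE 0.87, adjusted p = 0.024), with an adjusted p of 0.0583, 0.0639 or 0.0773 without HSD 16 h replicate 4, HSD 8 h replicate 2 or HSD 8 h replicate 4, and of 0.0676 in edgeR's quasi-likelihood test. Lcp4 had 15.8, 35.8 and 15.4 in the 8 h libraries and 54.9, 62.6, 80.4 and 67.0 in the 16 h libraries. The groups of Lcp4, a larval cuticle protein, did not overlap (log2 difference 1.65, SE 0.30, adjusted p = 0.0061). Nplp4, annotated as a neuropeptide-like precursor, was at 10.7, 32.1 and 12.1 and then at 76.3, 88.9, 184 and 99.5 (log2 difference 2.67, SE 0.44, adjusted p = 0.0044). The genes CG8012 (2.56), CG15905 (2.43), CG17974 (2.21) and CG32241 (1.91) also rose, and HSD 8 h replicate 3 was the highest 8 h library in each of them.

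Some of the changed genes are neighbours. With gaps of at most 20 kb in the Ensembl 115 annotation of BDGP6.54, 34 of the 170 genes at least 4-fold lower lay in 6 runs of 4 or more. The longest, on chromosome arm 3L, held 12 such genes among 24 tested genes in 80.5 kb, from CG13051 to CG4998, and CG13040 (41.4, 95.0 and 50.6 against 1.72, 17.1, 1.27 and 2.44, log2 difference -3.96, SE 0.78, adjusted p = 0.0084) is among them. Others were 5 genes of the Ccp84 cluster among 7 tested, 5 genes of the Osiris cluster region among 8 tested and 4 Tweedle genes among 5 tested, all on 3R. Another run on 2L held the lysosomal alpha-mannosidase genes LManIII, LManIV, LManV and LManVI, 4 of 4 tested in the stretch. At 8 h LManVI was at 439.8, 330.2 and 405, and at 16 h it was at 105.3, 53.4, 79.5 and 98.6. The groups of LManVI did not overlap (log2 difference -2.25, SE 0.23, adjusted p = 0.0016), nor did those of LManIII (-3.14) and LManV (-2.42), and HSD 16 h replicate 2 was the lowest 16 h library in these 3. LManIV passed the filter only through its 8 h libraries and so had to differ to be tested. Without it this stretch would fall short of a run of 4. Genes that passed the filter in this way were not taken out of the 170 or of the other runs. The remaining run, on 3L, held Cpr65Av, Lcp65Ad, Lcp65Ac and CG13297. Among genes at least 2-fold higher there was 1 run of 4, on 3R, with the prolyl 4-hydroxylase genes PH4alphaMP and PH4alphaNE1 and the genes CG31371 and CG9698. In it PH4alphaMP went from 20.1, 36.6 and 11.8 to 67.0, 66.4, 76.2 and 81.5 (log2 difference 1.79, SE 0.33, adjusted p = 0.0066).

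Genes of the moulting hormone showed a mixed picture. Of 24 receptors and response factors 7 fell (29.2%, against 19.1% of all genes) and 2 rose (8.33%, against 17.1%). There was no rise when all 4 groups were in the fit. The count of response factors that rose was none without replicate 2 at 8 h or replicate 1 or 4 at 16 h and 1 without replicate 4 at 8 h or replicate 2 or 3 at 16 h. ftz-f1, a nuclear receptor that is induced as the ecdysone pulse declines, was at 111, 179 and 266 at 8 h and 57.5, 58.0, 42.6 and 70.6 at 16 h (log2 difference -1.62, SE 0.29, adjusted p = 0.0063). The groups did not overlap in it or in the ecdysone-inducible gene ImpE2 (-1.54). ETHR, the receptor of ecdysis-triggering hormone, fell by 1.77-fold. Of 10 genes for ecdysone synthesis 2 rose (20%) and 3 fell (30%). spookier (spok), a cytochrome P450 of the prothoracic gland, rose from 14.7, 14.3 and 12.4 to 20.6, 17.6, 22.1 and 21.5 (log2 difference 0.55, SE 0.10, adjusted p = 0.0059). shade (shd), which converts ecdysone to its active form, rose as well (log2 difference 0.69, SE 0.17, adjusted p = 0.018), with an adjusted p of 0.117 when all 4 groups shared the estimate of spread, while the sterol transport gene Npc1a fell (log2 difference -0.42, SE 0.044, adjusted p = 0.0016).

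Most of the listed genes of growth and proliferation rose, by small amounts. Of 32 nucleolar and ribosome biogenesis genes 29 rose and 1 fell (median 0.50), and of 41 DNA replication and cell cycle genes 29 rose and none fell (median 0.46). The 12 replication and cell cycle genes not called included CycB (0.094), stg (-0.16), polo (-0.23) and fzy (-0.020). Cdk1 (0.79) and aurB (0.81) were among the 29 that rose. Histone and chromatin genes rose in 8 of 13 cases. Leaving out any 1 library left between 27 and 29 of the nucleolar and between 24 and 28 of the replication genes called. Both counts were at least as high under equal sums and under quantile normalization.

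In CG8545 the 8 h libraries were at 49.3, 53.3 and 49.0 and the 16 h libraries at 78.0, 84.8, 92.3 and 80.1. The groups of CG8545 did not overlap (log2 difference 0.72, SE 0.069, adjusted p = 0.0014), nor did those of the ribosome biogenesis factor Surf6 (0.81) or of Nopp140 (0.66), a nucleolar phosphoprotein. RnrL, the large subunit of ribonucleotide reductase, was at 40.3, 43.0 and 39.3 at 8 h and 59.0, 61.7, 66.8 and 62.3 at 16 h (log2 difference 0.60, SE 0.058, adjusted p = 0.0014). The spread within each group was small beside this difference. Cyclin E (CycE), which drives entry into S phase, rose by 1.55-fold, PCNA, the sliding clamp of the polymerase, by 1.502-fold and Mcm6, a subunit of the replicative helicase, by 1.36-fold. CG8545, RnrL and PCNA were at means of 38.2, 41.2 and 43.3 in HSD at 4 h and of 106, 65.3 and 74.1 in LSD at 8 h. In each of them the mean of HSD at 16 h lay between those of HSD at 8 h and LSD at 8 h.

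Mitochondrial ribosomal proteins rose in 47 of 72 cases and fell in none (median 0.20), and 67 rose under equal sums and 58 under quantile normalization. mRpS10 was at 31.5, 29.8 and 30.8 at 8 h and 43.7, 44.6, 48.3 and 43.5 at 16 h (log2 difference 0.54, SE 0.053, adjusted p = 0.0014). The count of mitochondrial ribosomal protein genes that rose was 28 without replicate 2 at 8 h, 30 without replicate 2 at 16 h and 31 without replicate 3 at 8 h. Of the respiratory chain and ATP synthase genes 24 of 67 rose and none fell (median 0.13). Under equal sums as well as under quantile normalization the number that rose was 63, and with all 4 groups in the fit 13. The count of respiratory chain genes that rose was 7 without replicate 2 at 8 h, 11 without replicate 3 at 8 h, 13 without replicate 4 at 16 h and 14 without replicate 2 at 16 h. ATPsynF, a subunit of the ATP synthase, went from 339, 353 and 337 to 454, 414, 415 and 439 (log2 difference 0.33, SE 0.048, adjusted p = 0.0033).

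Cytoplasmic ribosomal proteins gave few calls. Of 87 tested, 13 fell (14.9%, against 19.1% of all genes) and 2 rose (2.3%, against 17.1%), with a median of -0.07. Those that rose were RpLP0-like and RpL24-like. RpLP0-like (log2 difference 0.72, SE 0.078, adjusted p = 0.0016) is a ribosome assembly factor rather than a ribosomal protein. RpL24-like is in the list by its name alone, so neither rise need be that of a ribosomal protein. The direction depended on scaling: under equal sums 13 rose and none fell, and under quantile normalization 11 rose and 2 fell. With all 4 groups in the fit 5 fell. The count of ribosomal protein genes that fell was 3 without replicate 3 at 8 h, 5 without replicate 2 at 8 h or replicate 3 at 16 h and 6 without replicate 4 at 8 h or replicate 2 or 4 at 16 h. The count of ribosomal protein genes that rose was 1 without replicate 2 or 4 at 8 h.

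Proteasome subunits fell. Of 32 tested, 28 were lower at 16 h and none was higher (median -0.30), and leaving out any 1 library left between 21 and 29 called. Under equal sums 17 fell and under quantile normalization 6, and none rose under either. Rpn2 was at 221, 206 and 225 at 8 h and at 169, 169.7, 162 and 166 at 16 h. The groups of Rpn2, a subunit of the regulatory particle, did not overlap (log2 difference -0.38, SE 0.047, adjusted p = 0.002), nor did those of the ATPase subunit Rpt1 (-0.34) and of the ubiquitin receptor Rpn10 (-0.41). Among heat shock proteins and chaperones 7 of 15 rose and 1 fell. The count of chaperone genes that fell was none without replicate 3 or 4 at 8 h or replicate 1 or 3 at 16 h and 2 without replicate 4 at 16 h. Hsp83, the cytosolic Hsp90, was at 842, 804 and 847 at 8 h and 1237, 1244, 1271 and 1318 at 16 h (log2 difference 0.61, SE 0.042, adjusted p = 0.0013).

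**Figure D4:**
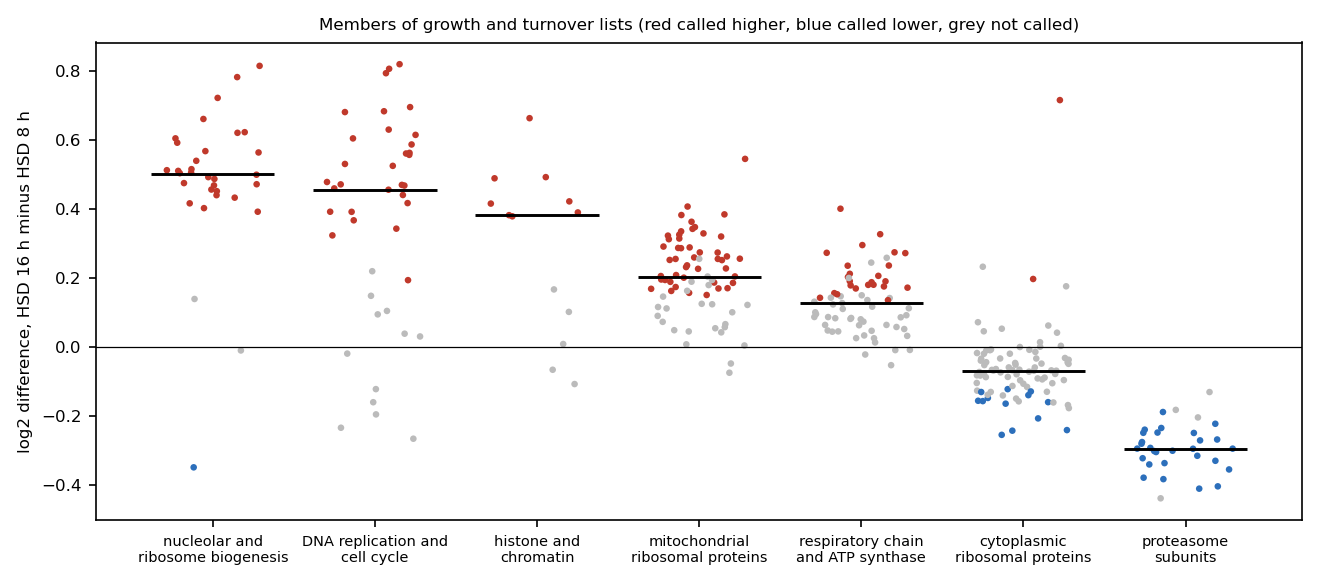
Each point is 1 tested member of a growth or turnover list (x axis) with its log2 difference between HSD 16 h and HSD 8 h (y axis), and the black line is the list's median. Nucleolar, replication, chromatin and mitochondrial members lie mainly above 0, cytoplasmic ribosomal proteins have a median of -0.07 (0.07 under equal sums) and proteasome subunits one of -0.30.

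Digestive enzymes changed in both directions, and several families had members moving either way. Of the gut lipases, which release fatty acids from dietary lipid, 6 of 10 fell and none rose (median -1.39). Without replicate 2, 3 or 4 at 8 h, only 8 passed the filter and 4 of them fell (medians -0.77, -0.80 and -0.77). The count of 6 and its median therefore include members that were tested only through their 8 h libraries. CG6283 was at 23.1, 15.5 and 18.99 at 8 h and 0.838, 0.380, 1.27 and 1.03 at 16 h (log2 difference -3.86, SE 0.25, adjusted p = 0.0011). CG6271 went from 8.43, 11.1 and 7.30 to 0.140, 0.380, 0.319 and 0.635, but it was tested only because its 8 h libraries passed the filter, so its difference and its place in the count of falls carry no weight. The groups of CG6283 did not overlap. The values of Lip1 were 176, 147 and 267 at 8 h and 19.2, 29.995, 35.8 and 46.5 at 16 h. Lip1 (log2 difference -2.59, SE 0.31, adjusted p = 0.002) and magro (mag, -1.83), a lipase secreted into the gut, fell as well.

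Of the amylases and maltases, which cut starch and disaccharides, 8 of 13 fell and 3 rose. Amyrel had 21.1, 18.4 and 16.2 in the 8 h libraries and 1.44, 1.44, 3.23 and 3.57 in the 16 h libraries. Amyrel, an alpha-amylase relative, fell by 6.91-fold (log2 difference -2.79, SE 0.30, adjusted p = 0.0016). The amylase Amy-p went from 16.6, 9.83 and 9.91 to 0.978, 0.887, 0.683 and 3.52 (log2 difference -2.79, SE 0.43, adjusted p = 0.0038). Amy-p and Amy-d (-2.87) are near-identical copies whose reads the counting could have split, so the values of each alone are uncertain. The 3 members that rose were maltases. Mal-A6 was at 143, 94.4 and 143 at 8 h and at 253, 253, 231 and 337 at 16 h (log2 difference 1.09, SE 0.18, adjusted p = 0.005). Mal-A1 was at 353, 235 and 352 at 8 h and at 535, 501, 509.8 and 665 at 16 h (log2 difference 0.83, SE 0.17, adjusted p = 0.0089), and Mal-A8 rose by 1.77-fold. Maltases of the same family fell: Mal-A4 from 58.9, 52.9 and 39.8 to 20.03, 17.997, 18.1 and 21.8 (log2 difference -1.34, SE 0.14, adjusted p = 0.0016) and Mal-A2 by 1.58-fold. In HSD at 4 h and LSD at 8 h the mean of Mal-A6 was 40.6 and 41.5, that of Mal-A1 151 and 102, and that of Mal-A4 33.6 and 27.95. The calls on single maltases were lost when all 4 groups shared the estimate of spread: adjusted p was 0.163 for Mal-A1, 0.128 for Mal-A2, 0.0747 for Mal-A4, 0.0568 for Mal-A6 and 0.0936 for Mal-A8, and of the list none was called higher and 5 lower.

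Serine proteases were divided too. Among the midgut trypsins 4 of 10 rose and 4 fell, against 5 and 2 under equal sums and under quantile normalization. thetaTry was at 46.6, 34.1 and 52.8 at 8 h and 87.9, 85.8, 75.3 and 93.7 at 16 h (log2 difference 0.96, SE 0.15, adjusted p = 0.0038), alphaTry rose by 1.62-fold and lambdaTry fell from 79.9, 84.0 and 67.8 to 48.6, 34.5, 43.1 and 45.8 (log2 difference -0.84, SE 0.13, adjusted p = 0.0035). Of the Jonah proteases and yip7, a chymotrypsin-like family, 7 of 17 fell and 3 rose, against 6 and 5 under equal sums. Jon99Ci went from 132, 101 and 90.0 to 27.3, 33.1, 49.8 and 49.8 (log2 difference -1.45, SE 0.24, adjusted p = 0.0049) and Jon65Aii fell by 1.87-fold. With the spread estimated over all 4 groups, adjusted p was 0.109 for thetaTry, 0.0839 for alphaTry, 0.176 for lambdaTry and 0.0841 for Jon99Ci; none of the trypsins was called in that fit, and of the Jonah list none was called higher and 1 lower. The count of trypsin genes that rose was 2 without replicate 2 or 3 at 8 h or replicate 1, 2 or 4 at 16 h. The count of trypsin genes that fell was 2 without replicate 2 or 3 at 8 h or replicate 2 at 16 h. The count of Jonah genes that rose was 1 without replicate 3 at 8 h. Several of these families hold near-identical copies, and their single-gene values share that uncertainty. Of 16 genes for the peritrophic matrix that lines the gut and for mucins, 8 fell and 1 rose, though the counts were 5 and 5 under quantile normalization and 6 and 4 under equal sums, with Muc68Ca at 55.9, 66.2 and 54.4 and 36.4, 31.6, 26.1 and 28.1 (log2 difference -0.94, SE 0.12, adjusted p = 0.0024). The count of peritrophic matrix genes that rose was none without replicate 2 or 4 at 8 h or replicate 1, 2 or 4 at 16 h. Of the Npc2 family of sterol-binding proteins, Npc2e fell from 49.97, 49.2 and 64.7 to 15.1, 17.5, 16.4 and 16.6 (log2 difference -1.70, SE 0.10, adjusted p = 0.0011), and of 8 members tested 3 fell and 1 rose.

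**Figure D5:**
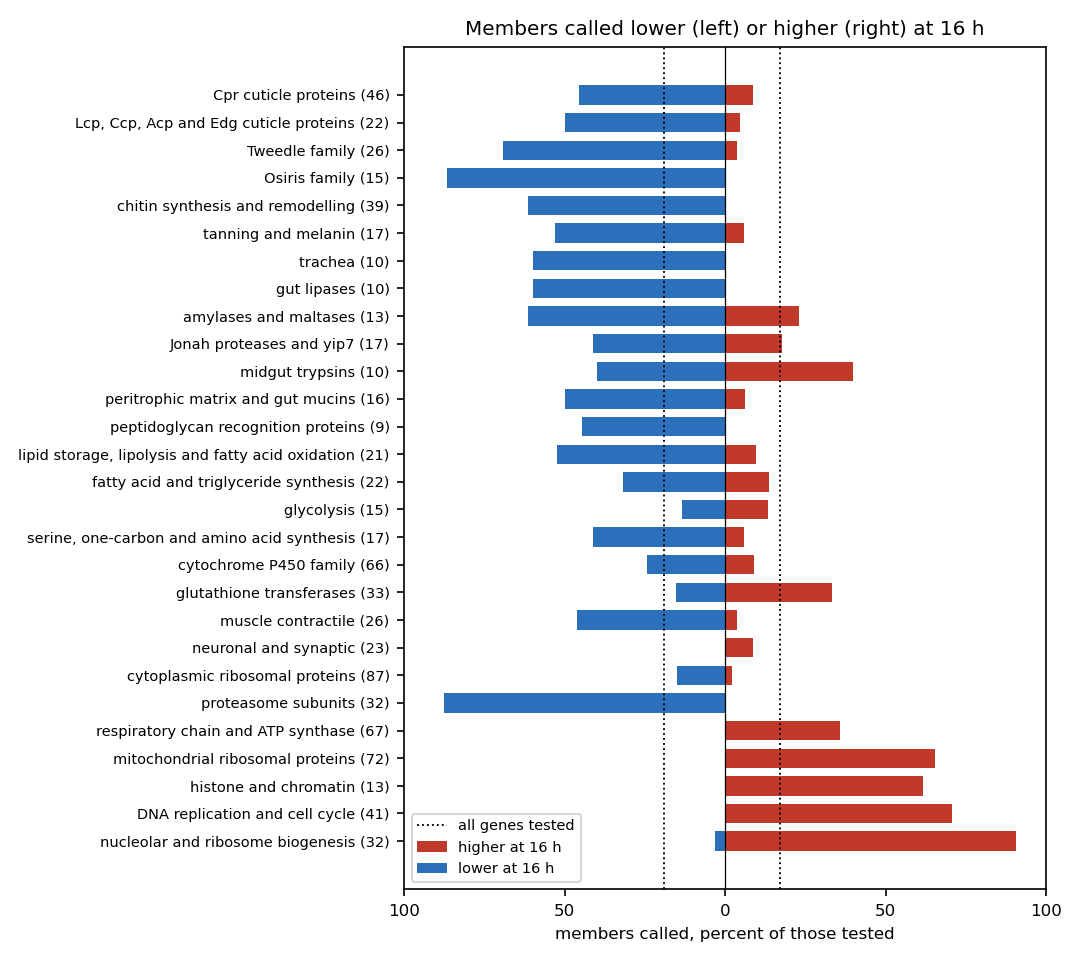
For each gene list (rows, with the number of members tested) the bars give the percent of members called lower (left) or higher (right) at 16 h, and the dotted lines the same percent over all 9997 genes, 19.1 and 17.1. Among the 28 lists drawn, the Osiris and proteasome lists have the highest shares of falls and the nucleolar list the highest share of rises.

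Some immune and cytokine signalling genes fell. At 8 h Drs was at 144, 95.1 and 69.4, and at 16 h it was at 5.82, 0.507, 3.82 and 5.03. Drosomycin (Drs), an antifungal peptide known as a target of Toll signalling, fell by 28.2-fold on the log2(value + 0.5) scale (log2 difference -4.82, SE 0.64, adjusted p = 0.0024). All 4 libraries at 16 h were far below all 3 at 8 h, and the means of 99.4 in HSD at 4 h and 93.0 in LSD at 8 h were near that of 103 in HSD at 8 h. Of the 17 antimicrobial peptides and immune effectors tested 2 fell (11.8%, against 19.1% of all genes) and none rose, the other being IM33 (log2 difference -0.82, SE 0.17, adjusted p = 0.0097). The differences of all 17 were below 0 (median -1.60). Without replicate 3 at 8 h only 11 of these immune effector genes passed the filter, and 4 of them fell. Without replicate 1 at 16 h only 9 passed the filter, and 8 of them fell. When all 4 groups shared the estimate of spread, 6 of 17 fell. Of 9 peptidoglycan recognition proteins 4 fell and none rose (3 and 1 under equal sums and under quantile normalization), with PGRP-LA at 55.9, 51.6 and 73.3 and 29.6, 22.1, 19.4 and 25.9 (log2 difference -1.30, SE 0.17, adjusted p = 0.0023). The cytokine gene upd3 was at 2.24, 2.67 and 2.97 at 8 h and 0.745, 0.676, 1.05 and 0.733 at 16 h (log2 difference -1.27, SE 0.15, adjusted p = 0.0019), and the groups did not overlap. Socs36E, a feedback inhibitor of JAK/STAT signalling, fell from 48.6, 46.8 and 46.6 to 25.1, 25.6, 22.4 and 27.6 (log2 difference -0.90, SE 0.073, adjusted p = 0.0014). The count of peptidoglycan recognition genes that fell was 2 without replicate 2 at 8 h.

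Among the sugar-sensing genes, Mondo, bigmax and cbt did not pass the test between 8 h and 16 h, and sug passed it narrowly. In sug the 8 h libraries were at 93.1, 114 and 95.7 and the 16 h libraries at 122, 114, 119.6 and 121. sug was called with an adjusted p of 0.045 and a log2 difference of 0.24, the groups overlapped, and the call was lost in 6 of the 7 fits that left out 1 library, with adjusted p up to 0.14. cabut was at 119.8, 139 and 126 and 129, 125, 131 and 131 (log2 difference 0.014, SE 0.058, adjusted p = 0.873). Mondo was at 272, 266 and 266 and 254.7, 261, 285 and 277 (log2 difference 0.0049, SE 0.051, adjusted p = 0.949). bigmax was at 23.2, 24.5 and 19.7 and 25.7, 21.8, 25.1 and 20.9 (log2 difference 0.056, SE 0.10, adjusted p = 0.704). The groups overlapped in all 3, and under quantile normalization the adjusted p was 0.033 for Mondo and 0.0464 for cbt, both as rises. clockwork orange (cwo), the transcriptional repressor named in the title of the series, did not pass either (91.5, 95.7 and 94.1 against 77.0, 77.7, 95.5 and 80.3, log2 difference -0.19, SE 0.08, adjusted p = 0.109), though without HSD 16 h replicate 3 its adjusted p was 0.00798 and with array weights 0.0359. For comparison, the means in LSD at 8 h were 11.2 for sug, 47.3 for cbt and 127 for Mondo. Of the 19 regulators listed 2 rose (10.5%, against 17.1% of all genes) and 3 fell (15.8%, against 19.1%). Under quantile normalization 9 rose and none fell, and under equal sums 8 rose and 1 fell. The count of regulators that fell was none without replicate 2 at 8 h and 1 without replicate 4 at 8 h or replicate 2 at 16 h. The count of regulators that rose was 1 without replicate 2 or 4 at 8 h or replicate 2, 3 or 4 at 16 h. Of these, spargel (srl), the PGC-1 homologue that promotes mitochondrial gene expression, was called, with 65.3, 65.4 and 65.8 at 8 h and 84.6, 100.3, 103 and 88.6 at 16 h (log2 difference 0.52, SE 0.077, adjusted p = 0.0033).

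Of 21 genes for lipid storage, lipolysis and fatty acid oxidation 11 fell and 2 rose, although under equal sums the counts were 5 and 4 and under quantile normalization 8 and 6. The count of lipid genes that rose was 1 without replicate 3 at 8 h or replicate 1, 2, 3 or 4 at 16 h. whd was at 162, 212 and 244 at 8 h and at 99.7, 98.4, 78.5 and 105.2 at 16 h. withered (whd), the mitochondrial carnitine palmitoyltransferase, was about 2.13-fold lower (log2 difference -1.09, SE 0.15, adjusted p = 0.0028), and the lipase gene Lip3 went from 6.43, 6.33 and 7.2005 to 0.559, 0.507, 1.23 and 0.587 (log2 difference -2.59, SE 0.20, adjusted p = 0.0014). yip2, an acetyl-CoA acyltransferase, fell by 1.496-fold. Fatty acid synthase FASN1 did not pass the test (5044, 4136 and 4425 against 3985, 3999.8, 4739.6 and 4359, log2 difference -0.085, SE 0.089, adjusted p = 0.486). Malic enzyme (Men) and Idh, which are among the enzymes that supply NADPH, fell from 2058, 2125 and 2289 to 1463, 1397, 1474 and 1511 (log2 difference -0.56, SE 0.051, adjusted p = 0.0014) and by 1.44-fold. Of 7 genes of the pentose phosphate pathway, in contrast, 5 rose and none fell (median 0.20). Leaving out any 1 library left between 2 and 4 of these called higher, and 6 rose under equal sums and 7 under quantile normalization.

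In glycolysis 2 of 15 genes rose and 2 fell (13.3% each, against 17.1% and 19.1% of all genes). Under equal sums and under quantile normalization 10 rose and none fell, and with all 4 groups in the fit none was called. The count of glycolysis genes that rose was none without replicate 3 at 8 h or replicate 1, 2 or 4 at 16 h and 1 without replicate 2 at 8 h or replicate 3 at 16 h. The count of glycolysis genes that fell was 1 without replicate 2, 3 or 4 at 8 h or replicate 2, 3 or 4 at 16 h. Outside the glycolysis list, 1 of 5 gluconeogenesis genes rose and 2 fell. The 1 that rose was Gpo-1, the mitochondrial glycerol-3-phosphate dehydrogenase. It went from 1047, 1022 and 1004 to 1333, 1304, 1316 and 1333 (log2 difference 0.37, SE 0.036, adjusted p = 0.0015), while its mean was 618.04 at 4 h and 262 in LSD. Of 11 trehalose and glycogen genes 3 fell and 2 rose, against 1 and 4 under equal sums and 1 and 3 under quantile normalization. Treh, the enzyme that splits the blood sugar trehalose, fell from 233, 188 and 215 to 127, 127, 136 and 141 (log2 difference -0.67, SE 0.082, adjusted p = 0.002). The groups did not overlap in Gpo-1 or in Treh. Of 17 genes for serine, one-carbon and amino acid synthesis 7 fell and 1 rose, against 5 and 3 under equal sums and under quantile normalization. The count of synthesis genes that rose was none without replicate 2 or 4 at 8 h or replicate 2, 3 or 4 at 16 h. astray (aay), the phosphoserine phosphatase, was at 277, 279 and 251 at 8 h and 138, 141, 161 and 139.8 at 16 h (log2 difference -0.89, SE 0.07, adjusted p = 0.0014). Gs1, a glutamine synthetase, went from 712, 803 and 821 to 529, 492, 461 and 469 (log2 difference -0.67, SE 0.07, adjusted p = 0.0016). Of 23 genes of insulin, adipokinetic hormone and FOXO signalling 5 fell (21.7%, against 19.1% of all genes) and 1 rose (4.35%, against 17.1%). Under equal sums and under quantile normalization 3 fell and 3 rose. Thor, the 4E-BP translation inhibitor and a FOXO target, fell from 479, 597 and 403 to 252, 231, 201 and 288 (log2 difference -1.01, SE 0.16, adjusted p = 0.004). ImpL2, a secreted protein that binds insulin-like peptides, fell by 1.70-fold (log2 difference -0.76, SE 0.11, adjusted p = 0.0033).

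Enzymes of detoxification changed in both directions. Glutathione transferases rose in 11 of 33 cases and fell in 5, against 18 and 4 under equal sums, 13 and 3 under quantile normalization and 5 and 4 when all 4 groups shared the estimate of spread. The count of glutathione transferase genes that rose was 3 without replicate 4 at 16 h, 4 without replicate 3 at 8 h or replicate 2 at 16 h and 6 without replicate 2 or 4 at 8 h or replicate 1 at 16 h. The count of glutathione transferase genes that fell was 3 without replicate 4 at 8 h. GstD7 was at 93.3, 101 and 104 at 8 h and 184, 193, 150.4 and 164 at 16 h (log2 difference 0.79, SE 0.092, adjusted p = 0.0019), and GstD6 rose by 2.32-fold. GstT4 fell from 164, 157 and 155 to 104.99, 95.5, 88.5 and 109.8 (log2 difference -0.67, SE 0.079, adjusted p = 0.0019). Of 66 cytochrome P450 genes 16 fell (24.2%, against 19.1% of all genes) and 6 rose (9.09%, against 17.1%), and under equal sums 12 fell and 16 rose. Cyp318a1 fell by 3.12-fold and Cyp310a1 rose by 1.87-fold. The UDP-glycosyltransferase gene CG5724 rose from 30.6, 32.8 and 40.1 to 74.3, 63.5, 74.0 and 89.4 (log2 difference 1.11, SE 0.13, adjusted p = 0.0019), with means of 18.99 at 4 h and 3.64 in LSD.

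Muscle contractile genes fell in 12 of 26 cases and rose in 1 (median -0.15). Under equal sums 5 fell and 2 rose, and under quantile normalization 4 fell and 4 rose. The count of muscle genes that fell was 6 without replicate 4 at 8 h. The count of muscle genes that rose was none without replicate 2 or 3 at 8 h or replicate 1, 3 or 4 at 16 h and 2 without replicate 4 at 8 h. Mhc, the muscle myosin heavy chain, was at 9020.3, 9395 and 9366 and then at 7433, 7329.8, 7649 and 7590.4 (log2 difference -0.30, SE 0.039, adjusted p = 0.0022), the groups did not overlap, and under quantile normalization the adjusted p was 0.11. Of 23 neuronal and synaptic genes 2 rose (8.70%, against 17.1% of all genes) and none fell. Of 17 hemocyte and basement membrane genes 3 fell (17.6%, against 19.1%). Under equal sums as well as under quantile normalization 10 neuronal genes rose, and of the hemocyte genes 1 and none fell. The count of neuronal genes that rose was none without replicate 2 or 3 at 8 h or replicate 2 at 16 h and 4 without replicate 1 at 16 h. The count of hemocyte genes that fell was 5 without replicate 3 at 8 h. Of the 13 Malpighian tubule genes 4 fell (30.8%, against 19.1% of all genes) and 2 rose (15.4%, against 17.1%). The urate oxidase gene Uro fell from 26.5, 34.0 and 13.4 to 2.42, 4.06, 3.91 and 2.83 (log2 difference -2.65, SE 0.32, adjusted p = 0.0019), while the potassium channel gene Irk2 rose (log2 difference 0.62, SE 0.12, adjusted p = 0.0069). The count of tubule genes that rose was 1 without replicate 2 or 3 at 8 h or replicate 1, 2 or 4 at 16 h. Obp56a, an odorant-binding protein gene, rose from 1376, 1676 and 787 to 2939.6, 2854, 2227 and 2996 (log2 difference 1.16, SE 0.25, adjusted p = 0.011), and HSD 8 h replicate 4 was its lowest library, with an adjusted p of 0.0529 when all 4 groups shared the estimate of spread. Among 150 long non-coding RNA genes 14 rose (9.33%, against 17.1% of all genes) and 15 fell (10%, against 19.1%). Under equal sums 33 rose and 10 fell, and under quantile normalization 24 rose and 11 fell. The count of long non-coding genes that rose was 8 without replicate 2 at 8 h and 9 without replicate 4 at 8 h. The count of long non-coding genes that fell was 8 without replicate 4 at 8 h and 9 without replicate 3 at 8 h.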

How the data were processed

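RNA from whole larvae was sequenced as 75 bp single-end reads from rRNA-depleted, stranded libraries, in 2 technical runs per sample, per the labels' protocols. Trimmomatic, the aligner TopHat2 2.1.0, the read counter HTSeq and limma are named in the submitters' processing notes. Neither the genome build nor the strand setting of the counting was found there, so genes that overlap or lie antisense to others are uncertain. The deposited values are a signal, read counts divided by the authors' effective library size; in all 7 libraries 100% of values came out as whole reads within 0.01, and those reads went into the alternative edgeR 4.0.16 quasi-likelihood test. The main test was limma 3.58.1 (R 4.3.3) on log2(value + 0.5) with a trended prior variance, over the 9997 genes that reached 1 in 3 or more of the 7 libraries, with Benjamini-Hochberg adjustment. The authors' deposited log2 coefficients, test scores (t and F) and p-values were not used. The fitting was tested on simulated data.

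Groups came from the labels. Same-numbered libraries of the groups had correlated deviations of 0.0109, 0.247 and 0.0912, so the numbers were not taken as pairs. Genes were named by a rule: the 15 largest changes each way among called genes with no overlap between libraries of the groups, where the mean reached 5 at one of the times; in each list the called members with the 3 smallest adjusted p and the most abundant member; and cwo, sug, cbt, Mondo and bigmax. The text gives a selection of these. Amy-d, Amy-p, Irk2, the LMan genes, Mal-A2, Mal-A6, Mal-A8, Osi14, PCNA, RpL24-like, kkv, mag, shd and yellow-e2 were chosen after their values were seen. Members and lists were chosen with earlier results of these data known. Alternatives were other pseudocounts, filters, scalings, thresholds, spread models and each library left out.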

Additional observations from a re-analysis of the deposited data

Results flagged for a closer look

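Of 105 genes given with values, 11 had a 16 h library whose gap to the nearest of the others exceeded Dixon's 95% critical value on the log2 scale, where chance flags about 1 in 20 groups. HSD 16 h replicate 2 stood above the other 3 libraries in CG14564 (1.52), CG14568 (2.96) and TwdlJ (12.5), and below them in LManV (23.8). HSD 16 h replicate 3 stood below the others in Cpr65Eb (16.4), Osi14 (148), Osi9 (195) and Obp56a (2230), and above them in Lip3 (1.23), aay (161) and yellow-e2 (8.28).

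Among the list medians, on the log2(value + 0.5) scale, HSD 16 h replicate 1 was high for antimicrobial peptides and immune effectors at 3.31, replicate 3 was high for serine, one-carbon and amino acid synthesis at 7.33, and replicate 2 was low for histone and chromatin genes at 6.47. What sets these libraries apart was not tested.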

How the results depend on the processing

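The number of genes called was 3623, of which 1711 were higher and 1912 lower. Leaving out 1 library gave between 2535 and 3195 called, between 1126 and 1444 higher and between 1342 and 1751 lower, with the fewest rises without HSD 8 h replicate 2. Quantile normalization called 2712 genes higher, and scaling every library to the same sum, an alternative chosen after seeing the data, called 3391 higher and 1206 lower. Leaving out HSD 16 h replicate 2 and HSD 8 h replicate 3 together, also chosen after seeing the data, left 2096 called, 950 higher and 1146 lower. At an adjusted p under 0.01 there were 1694 called, 747 higher and 947 lower, and with at least 1.5-fold 1051, 250 and 801. edgeR's quasi-likelihood test called 3570 genes, 3481 of them shared with limma.

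The replicate block called 2643 genes, 1118 of them higher, and shared 2423 of its calls with the fit without it. Same-numbered libraries did not deviate together in every pair, so the block stands for a shared number and not for a known pairing. Replicate 1 was analysed only at 16 h, so under the block that library adds nothing to the difference between the times. The median of the nucleolar list was 0.545 under the block and also without HSD 16 h replicate 1. The smaller number of calls thus mixes the block with the loss of 1 library. Under the block the adjusted p was 0.0509 for CG13040, 0.0632 for Obp56a and 0.0852 for sug. The direction of FASN1 reversed under quantile normalization (0.18) and under equal sums (0.057), neither past the threshold; the cause was not tested. Of 99 named genes that were called and could be tested in each fit that left out 1 library, 96 kept the call in all of them; TwdlJ, TwdlO and sug did not, and CG6271 did not pass the filter when any 1 of the 8 h libraries was left out. With 3 against 4 libraries and 5 residual degrees of freedom, small changes rest on the moderated spread, and at low depth a listed 0 bounds a level only at 3 reads.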
